A study of Mus musculus with 18 samples.

Results

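The genes described here are *Nfe2l2*, which encodes the transcription factor NRF2, *Keap1*, which encodes its repressor, and 8 genes that NRF2 is known to activate: *Gclc*, *Gclm*, *Gsr*, *Txnrd1*, *Srxn1*, *Nqo1*, *Hmox1* and *Osgin1*. The list is one of known pathway genes given by symbol, drawn up when earlier results of these data were known, and each gene was matched to its Ensembl identifier. All 10 were among the 22524 genes listed for each mouse, and all 10 were among the 13353 genes that were tested. Liver RNA was sequenced from 10 female A226Y mice and 8 female WT mice, all 15 months old, with 1 library per mouse. A226Y mice are heterozygous knock-in animals on a C57BL/6 background. Their targeted *Rps2* allele carries the A226Y change, which lowers the accuracy of translation, behind a *loxP*-flanked cassette that stops transcription. Cre recombinase under the ubiquitous CMV promoter removes the cassette, and the WT control mice carry the Cre transgene too. According to the methods, removal was never complete, so each A226Y liver is a mosaic of cells that express the mutant allele and cells in which that allele is still silent.

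In unstressed cells, KEAP1 binds NRF2 and presents it to a CUL3 ubiquitin ligase, so that NRF2 is degraded. Oxidants and electrophiles modify cysteines of KEAP1, after which NRF2 accumulates, enters the nucleus, pairs with a small MAF protein and binds antioxidant response elements (AREs) near its target genes. Since this control acts on the NRF2 protein, which was not measured here, the target mRNAs are the usual readout of the pathway. In liver, the targets supply glutathione, thioredoxin reduction and the detoxification of quinones and heme.

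The core ARE was searched in promoters as TGACNNNGC or TGAGNNNGC, on both strands. RefSeq promoter windows of GRCm38.p6, each reaching from 250 bases before a start site to 50 bases after it, were found for 7 of the 10 genes (9 windows, of which 3 belong to *Txnrd1*). There were none for *Gclc*, *Gsr* and *Hmox1*. At least 1 match was present in 5 of the 9 windows, in 1 window each of *Nfe2l2*, *Gclm*, *Txnrd1*, *Srxn1* and *Osgin1*. The background is high, because 27.8% of all 32851 promoter windows hold one of the 2 forms. The 250 bases upstream of *Srxn1* and *Osgin1* are shown since these were the genes with the largest positive and negative fold changes below. Sequences read 5′ to 3′ on the strand of the gene, and capitals mark ARE matches, so a match on the opposite strand appears as its reverse complement.
*Srxn1*, chr2:152105274-152105523, plus strand: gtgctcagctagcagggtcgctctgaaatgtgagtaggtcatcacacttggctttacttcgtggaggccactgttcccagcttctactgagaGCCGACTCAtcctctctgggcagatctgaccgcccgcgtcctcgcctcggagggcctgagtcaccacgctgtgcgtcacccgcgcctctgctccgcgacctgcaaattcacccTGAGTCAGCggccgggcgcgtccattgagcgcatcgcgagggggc
*Osgin1*, chr8:119436897-119437146, plus strand: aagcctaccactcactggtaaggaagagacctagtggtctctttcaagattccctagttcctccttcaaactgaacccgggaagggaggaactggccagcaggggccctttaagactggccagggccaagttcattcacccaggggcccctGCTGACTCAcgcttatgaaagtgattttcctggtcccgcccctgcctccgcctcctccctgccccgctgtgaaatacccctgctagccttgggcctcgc
In *Srxn1*, TGAGTCAGC lay 45 bases before the RefSeq start and TGAGTCGGC, on the opposite strand, 158 bases before it. A further match, TGACCTAGC, lay on the opposite strand 28 bases after the start, in an exon. In *Osgin1*, TGAGTCAGC on the opposite strand lay 99 bases before the start, at a place that the GENCODE M21 annotation puts in an intron. The letters TGAGTCAGC contain the AP-1 motif TGANTCA, which 7.81% of all windows held, so the 2 motifs overlap at that site in both genes.

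The other 3 matches are shown in short windows, to let the variable bases of the element be compared. All 3 were of the TGACNNNGC form, which was present in 12.4% of all windows, whereas TGAGNNNGC was present in 17.6%.
*Nfe2l2*, chr2:75704883-75704913, minus strand, 240 bases before the start: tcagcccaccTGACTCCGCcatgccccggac
*Gclm*, chr3:122245411-122245443, plus strand, 134 bases before the start: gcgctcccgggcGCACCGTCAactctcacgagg
*Txnrd1*, chr10:82859102-82859134, plus strand, 92 bases before the start: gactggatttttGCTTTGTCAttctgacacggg
The matches of *Gclm* and *Txnrd1* were on the opposite strand, and that of *Txnrd1* lay in an intron of the longer gene model. The windows of *Keap1* and *Nqo1* held neither form, and neither did the other 2 windows of *Txnrd1*. A match describes letters and is not evidence of binding in these livers. Sequence outside the windows was not searched, so a window without a match does not show that a gene lacks an ARE.

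Total counts were between 23850565 and 62126131 per A226Y mouse and between 25869192 and 34918732 per WT mouse, so the 10 genes had at least 277 counts in every mouse. Levels are given as CPM, the count of a gene relative to its library total after TMM scaling, which corrects for differences in library composition. *Rps2*, the targeted gene, was lower in all 10 A226Y mice than in any WT mouse, at 68.6 ± 13.3 CPM (SD, n = 10) against 114.1 ± 13.03 CPM (SD, n = 8). The 6 hepatocyte markers summed to between 69660 and 173600 CPM. A226Y mouse 29 and WT mouse 33 stood apart from the rest of their genotypes. They had the highest and lowest TMM factor (1.062 and 0.894), and each was at an end of its genotype's range for 6 of the 10 genes. Mouse 29 also had the lowest summed hepatocyte markers of all A226Y mice (69660 CPM) and the highest summed Kupffer cell and macrophage markers (1475 CPM). As the RNA came from whole liver, fewer cells of a type and less RNA per cell cannot be told apart.

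Of the 10 genes, 1 rose in A226Y mice and none fell at an adjusted p-value under 0.05 in edgeR's quasi-likelihood test, in which 7.27% of all tested genes were higher and 7.03% were lower. *Srxn1* was the gene that rose. At an unadjusted p-value under 0.05, 2 were higher (*Srxn1* and *Gsr*) and 1 was lower (*Osgin1*), next to 14.9% and 14.7% of all tested genes. With DESeq2, 2 were higher and none lower (9.34% and 8.77% of all tested genes), and with limma-voom 1 was higher and none lower (7.14% and 6.87%). Over the 10 genes, log2 fold changes had a median of 0.019, next to −0.004 over all tested genes, and 5 of the 10 were positive. No gene of the 10 had genotypes that did not overlap, which 0.637% of all tested genes had.

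**Figure D1:**
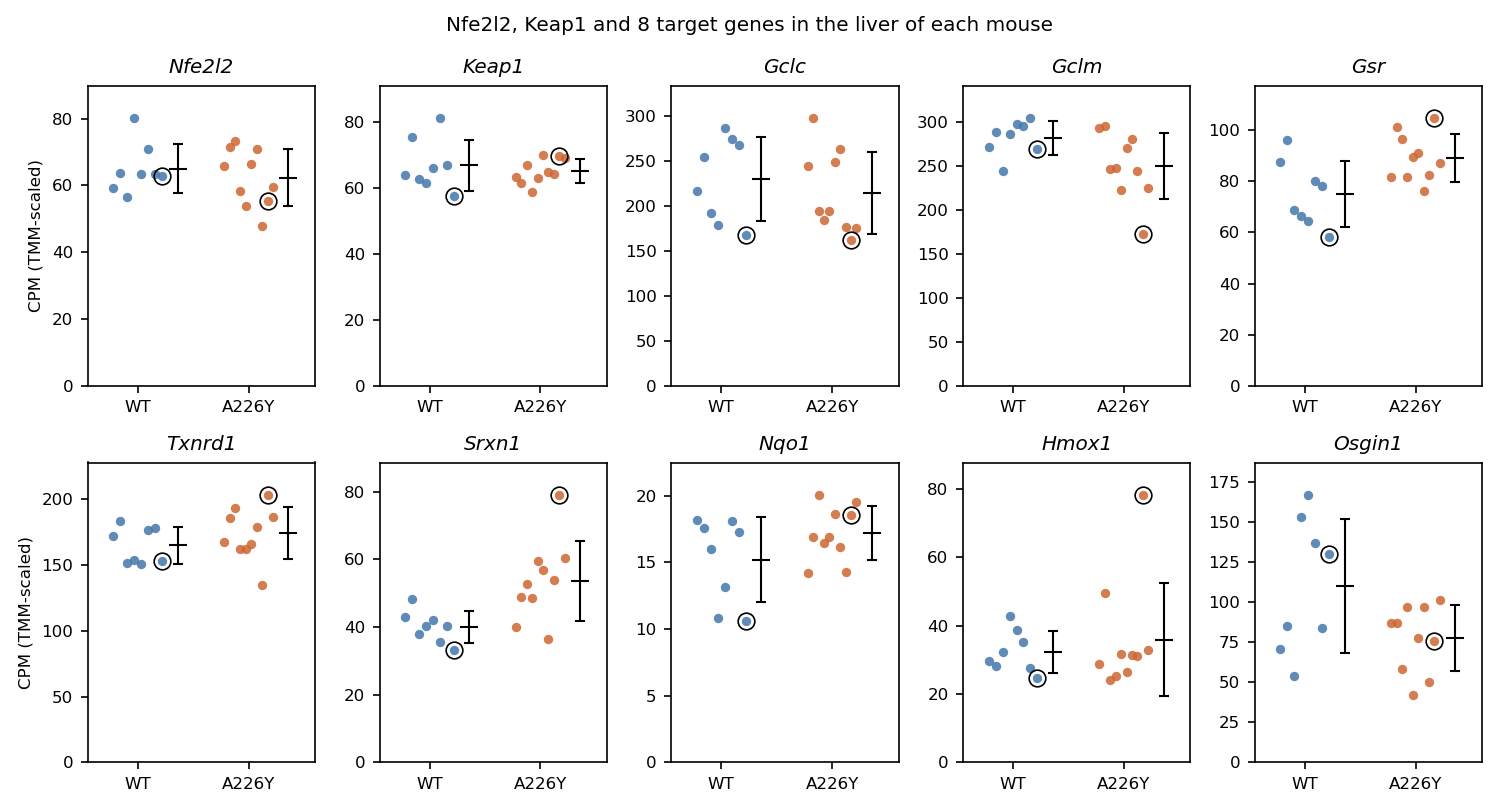
Level of each of the 10 genes in CPM (TMM-scaled, linear axis from 0) in each of the 8 WT mice (blue) and 10 A226Y mice (orange), in order of mouse number from left to right within a genotype; black bars give the mean ± SD, and rings mark WT mouse 33 and A226Y mouse 29. Every panel shows overlapping genotypes, *Srxn1* has 8 of 10 A226Y mice above every WT mouse, and the highest *Hmox1* value, 78.3 CPM, is that of the ringed A226Y mouse.

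Both regulators had nearly the same level in the 2 genotypes. *Nfe2l2* (ENSMUSG00000015839, GRCm38 chromosome 2, 75675513 to 75704641, minus strand) ranged from 56.4 to 80.1 CPM in WT mice (median 63.5) and from 47.9 to 73.3 CPM in A226Y mice (median 62.8). The genotypes overlapped over most of that range, with 5 of the 10 A226Y mice above the WT mean and 5 below. *Nfe2l2* had a log2 fold change of −0.06 (95% confidence interval −0.24 to 0.11, adjusted p = 0.664). *Keap1* (ENSMUSG00000003308, chromosome 9, 21229730 to 21239361, minus strand) ranged from 57.6 to 81.1 CPM in WT mice (median 64.9) and from 58.8 to 69.9 CPM in A226Y mice (median 64.5). Its log2 fold change was −0.04, with a confidence interval of −0.17 to 0.09 and an adjusted p of 0.711 in edgeR. The signs of both are uncertain, as that of *Nfe2l2* turned with surrogate variables and that of *Keap1* with a GC offset.

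Glutathione is made in a step limited by glutamate-cysteine ligase, whose catalytic subunit is encoded by *Gclc* and whose modifier subunit is encoded by *Gclm*. *Gclc* (ENSMUSG00000032350, chromosome 9, 77754535 to 77794485, plus strand) ranged from 168 to 287 CPM in WT mice (median 236) and from 163 to 298 CPM in A226Y mice (median 194). The spread among mice of one genotype was wide and the ranges nearly coincided. *Gclm* (ENSMUSG00000028124, chromosome 3, 122245557 to 122270732, plus strand) ranged from 244 to 305 CPM in WT mice (median 288) and from 173 to 296 CPM in A226Y mice (median 247). Of the A226Y mice, 8 of 10 were below the WT mean, 3 were below every WT mouse, and the lowest was mouse 29. The log2 fold change was −0.10 ± 0.13 (SE) for *Gclc* (adjusted p = 0.645, −0.17 to −0.05 as each mouse was left out) and −0.18 ± 0.09 (SE) for *Gclm* (adjusted p = 0.185), so neither passed the test in edgeR. The exact permutation test gave p = 0.465 for *Gclc* and p = 0.0344 for *Gclm* (two-sided, unadjusted). Without mouse 29 and WT mouse 33, that of *Gclm* was −0.13 (adjusted p = 0.196).

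*Gsr* encodes glutathione reductase, which returns oxidised glutathione to its reduced form with NADPH. *Gsr* (ENSMUSG00000031584, chromosome 8, 33652523 to 33698163, plus strand) ranged from 58.3 to 96.2 CPM in WT mice (median 73.5) and from 76.2 to 104.7 CPM in A226Y mice (median 88.2). Each of the 10 A226Y mice exceeded the mean of the WT mice. Of the 8 WT mice, 4 were below every A226Y mouse and the other 4 lay within the A226Y range. The log2 fold change was 0.25 (confidence interval 0.06 to 0.44), and the adjusted p of 0.0661 in edgeR missed the threshold. The unadjusted p was 0.0116, and the exact permutation test over mice gave p = 0.0143 (two-sided, unadjusted). The outcome of this test depended on the processing. The adjusted p was 0.0415 with DESeq2, 0.0427 with an offset for transcript length and 0.0514 with limma-voom, and with surrogate variables (patterns of variation estimated from all genes) the log2 fold change was 0.10 (adjusted p = 0.574). In edgeR it was 0.0148 without WT mouse 6, the WT mouse with the most *Gsr*, and 0.139 without A226Y mouse 29 and WT mouse 33 (log2 fold change 0.18).

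*Srxn1* encodes sulfiredoxin, which repairs peroxiredoxins whose active-site cysteine has been overoxidised. *Srxn1* (ENSMUSG00000032802, chromosome 2, 152105516 to 152111376, plus strand) ranged from 33.2 to 48.3 CPM in WT mice (median 40.3) and from 36.4 to 79.1 CPM in A226Y mice (median 53.2). In A226Y mice 3, 5, 7, 11 and 15 the level was 40.1, 48.9, 52.6, 48.7 and 59.5 CPM, and in A226Y mice 18, 22, 23, 29 and 32 it was 56.9, 36.4, 53.9, 79.1 and 60.5 CPM. In WT mice 4, 6, 13 and 14 it was 42.9, 48.3, 37.8 and 40.4 CPM, and in WT mice 21, 24, 28 and 33 it was 42.1, 35.6, 40.2 and 33.2 CPM. Thus 8 of the 10 A226Y mice were above every WT mouse, and A226Y mice 3 and 22 lay among the WT mice. *Srxn1* was 33.9% higher in A226Y mice, with a log2 fold change of 0.42 ± 0.12 (SE) and a confidence interval of 0.18 to 0.66 (adjusted p = 0.0204, edgeR). The exact permutation test gave p = 0.00457 (two-sided, unadjusted).

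The increase of *Srxn1* did not rest on a single mouse. Leaving out each mouse in turn gave log2 fold changes of 0.34 to 0.47 and adjusted p-values of 0.00757 to 0.0442 in edgeR, under the threshold in 18 of 18 fits. Without both A226Y mouse 29, which had the highest level, and WT mouse 33, which had the lowest, it was 0.31 (adjusted p = 0.0315). It was called with DESeq2, limma-voom and each other scaling, filter and offset tried. With 4 surrogate variables its log2 fold change was 0.25 and the call was lost (adjusted p = 0.111). With these covariates 248 genes of the whole series were called, against 1910 without them.

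*Txnrd1* encodes the cytosolic thioredoxin reductase, which keeps thioredoxin reduced with NADPH. *Txnrd1* (ENSMUSG00000020250, chromosome 10, 82833951 to 82897712, plus strand) ranged from 151 to 183 CPM in WT mice (median 163) and from 135 to 204 CPM in A226Y mice (median 173). The A226Y values reached beyond the WT range at both ends, with 4 mice above it and 1 below it. *Txnrd1* had a log2 fold change of 0.08 (confidence interval −0.08 to 0.23, adjusted p = 0.506). The sign turned with surrogate variables.

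*Nqo1* encodes a quinone reductase that is often used as a reporter of NRF2 activity. *Nqo1* (ENSMUSG00000003849, chromosome 8, 107388225 to 107403206, minus strand) ranged from 10.6 to 18.2 CPM in WT mice (median 16.6) and from 14.2 to 20.1 CPM in A226Y mice (median 16.9). The medians were close, and 3 WT mice lay below every A226Y mouse while 4 A226Y mice lay above every WT mouse. The log2 fold change was 0.17 (confidence interval −0.06 to 0.40) and did not pass the test (adjusted p = 0.305, edgeR). With surrogate variables it was −0.05, and without A226Y mouse 29 and WT mouse 33, the WT mouse with the least *Nqo1*, it was 0.10 (adjusted p = 0.538).

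*Hmox1* encodes the inducible heme oxygenase, which breaks down heme and is also abundant in macrophages that clear red blood cells. *Hmox1* (ENSMUSG00000005413, chromosome 8, 75093621 to 75100589, plus strand) ranged from 24.6 to 42.8 CPM in WT mice (median 30.9) and from 24.2 to 78.3 CPM in A226Y mice (median 31.2). A226Y mouse 29 had 78.3 CPM and mouse 5 had 49.4 CPM, and the other 8 A226Y mice lay at or below 32.9 CPM. Its log2 fold change was 0.15 (confidence interval −0.26 to 0.56, adjusted p = 0.652) with all mice, −0.05 without mouse 29 and 0.33 with surrogate variables (adjusted p = 0.0812). In that mouse, summed markers were the highest of all A226Y mice for Kupffer cells and macrophages (1475 CPM, A226Y median 514), for erythroid cells (421.9 CPM, median 252) and for lymphocytes (35.7 CPM, median 16.9). WT mouse 33 likewise had the highest sums of all WT mice for these 3 cell types (1150, 764 and 44.4 CPM), yet it had the lowest *Hmox1* level of all WT mice, 24.6 CPM. Over all mice, the 10 Kupffer cell and macrophage markers summed to between 566 and 1150 CPM in WT mice (median 817) and between 371 and 1475 CPM in A226Y mice (median 514). Of the 10 markers 9 had a negative log2 fold change, and 1, *Clec4f* (named after its value was seen), fell (7.03% of all tested genes). None of the 5 erythroid markers was called, all 5 had a negative log2 fold change (median −0.45), and their sum was between 208 and 764 CPM in WT mice and between 164 and 421.9 CPM in A226Y mice. No marker of either list was near 0. Their part in the level of *Hmox1* was not tested.

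*Osgin1* encodes an oxidative stress-induced growth inhibitor. *Osgin1* (ENSMUSG00000074063, chromosome 8, 119434124 to 119446256, plus strand) ranged from 53.9 to 167 CPM in WT mice (median 107) and from 42.3 to 101 CPM in A226Y mice (median 82.3). In WT mice 4, 6, 13 and 28 it was 70.9, 85.0, 53.9 and 83.9 CPM, and in WT mice 14, 21, 24 and 33 it was 153, 167, 137 and 129.8 CPM. The latter 4 were above every A226Y mouse, whereas the former 4 lay within the A226Y range. All 10 A226Y mice were below the WT mean. The log2 fold change was −0.51 (confidence interval −0.95 to −0.07, p = 0.0251 and adjusted p = 0.108 in edgeR), the largest in size of the 10 genes, but it did not pass the test. Leaving out each mouse in turn gave −0.61 to −0.40 and no call, and with surrogate variables it was −0.17. The exact permutation test gave p = 0.0732 (two-sided, unadjusted).

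**Figure D2:**
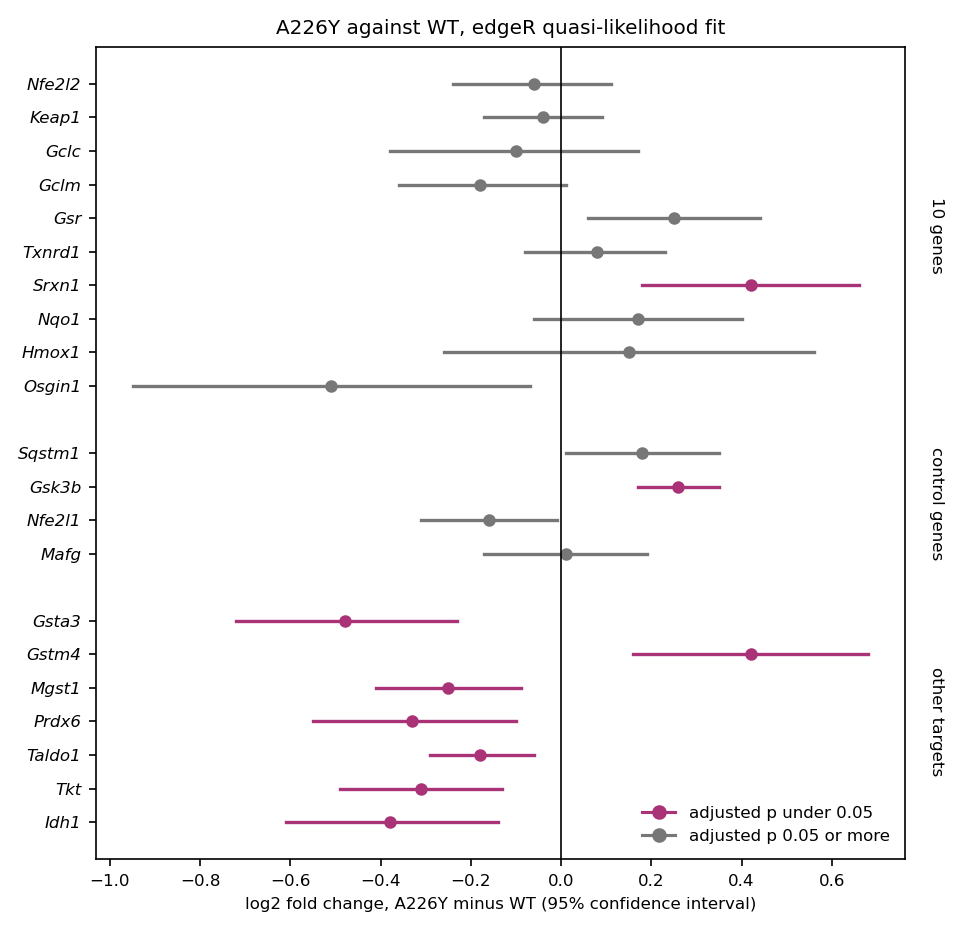
Log2 fold changes of A226Y minus WT with their 95% confidence intervals (horizontal axis) for the 10 genes, for 4 genes that control NRF2 and for the 7 other targets with an adjusted p-value under 0.05 (purple; others grey). Among the 10 genes the interval of *Srxn1*, 0.18 to 0.66, is the one in purple, and among the other targets 6 of the 7 lie to the left of 0.

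Per length, the ligase subunits were the most abundant of the 10 transcripts. Over all 18 mice, the level per kilobase of exon was 58.8 ± 12.1 CPM per kb (SD) for *Gclc*, 42.0 ± 5.5 for *Gclm*, 34.4 ± 13.1 for *Osgin1*, 30.1 ± 4.7 for *Gsr* and 24.02 ± 2.5 for *Txnrd1*. It was 19.6 ± 7.3 CPM per kb for *Hmox1*, 16.9 ± 4.1 for *Srxn1*, 16.7 ± 2.1 for *Nfe2l2*, 14.03 ± 1.2 for *Keap1* and 10.5 ± 1.8 for *Nqo1*. The ranges over mice overlapped between each pair of neighbours in this order. The order also differed between genotypes, as *Srxn1* was below *Nfe2l2* in WT mice (14.2 and 17.1 CPM per kb) and *Osgin1* below *Gsr* in A226Y mice (28.9 and 32.4 CPM per kb). It depended on the gene model too, as *Txnrd1* was the third rather than the fifth when the longest transcript was used in place of all exons. Variation from mouse to mouse was widest for *Osgin1* and *Hmox1*, with coefficients of variation of 38.0% and 37.2% over all mice (38.5% and 21.2% without A226Y mouse 29), and narrowest for *Keap1*, with 8.69%.

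The 10 genes did not vary from mouse to mouse as a single unit. Correlations were computed over the 18 mice on log2 CPM after removal of each genotype's mean, for all 45 pairs, with permutation tests within genotype and Benjamini-Hochberg adjustment over the pairs. Of the 45 pairs, 29 had a positive Pearson r, the median was 0.23, and 5 passed at an adjusted p under 0.05, all of them positive. By Spearman's rho 5 pairs passed, and 4 passed by both measures. Pairs of other genes were not examined in this way. Whether these counts and this median differ from those of other gene pairs was therefore not tested.

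The 2 ligase subunits varied together. *Gclc* and *Gclm* had r = 0.75 (permutation p = 0.00016, adjusted p = 0.0072) and rho = 0.80 (permutation p = 0.00015, adjusted p = 0.00338). It was r = 0.84 within A226Y mice and 0.69 within WT mice, and r = 0.71 without the 2 mice farthest from the median of *Gclc*. It passed in 18 of 18 fits that left out a mouse. The 2 mRNAs encode subunits of one enzyme, though the tie was not complete: WT mouse 14 had 179 CPM of *Gclc*, well below the WT median, and 287 CPM of *Gclm*, close to it.

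A second set of correlated genes comprised *Gsr*, *Txnrd1* and *Nqo1*, which encode enzymes that draw on NADPH or NADH. *Gsr* and *Nqo1* had r = 0.77 (permutation p = 0.00112, adjusted p = 0.0142) and rho = 0.85 (permutation p = 0.00013, adjusted p = 0.00338). *Txnrd1* and *Nqo1* had r = 0.66 (permutation p = 0.00107, adjusted p = 0.0142) and rho = 0.69 (permutation p = 0.00313, adjusted p = 0.0282). *Gsr* and *Txnrd1* had r = 0.67 (permutation p = 0.00126, adjusted p = 0.0142) and rho = 0.72 (permutation p = 0.0018, adjusted p = 0.027). Without the 2 mice farthest from the median of the first gene of each pair, r was 0.70, 0.69 and 0.66. All 3 pairs were positive within each genotype, with r between 0.59 and 0.89. *Gsr* and *Srxn1* passed by Pearson's measure alone (r = 0.60, permutation p = 0.00242, adjusted p = 0.0218; rho = 0.53, permutation p = 0.0243, adjusted p = 0.137) and had r = 0.51 without the 2 farthest mice.

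Fewer pairs passed without mice 29 and 33. Without both of them 2 of the 45 did, *Gclc* with *Gclm* (r = 0.81, permutation adjusted p = 0.0135) and *Txnrd1* with *Nqo1* (r = 0.68, permutation adjusted p = 0.0416). *Gsr* and *Nqo1* then had r = 0.70 (permutation adjusted p = 0.0942) and *Gsr* and *Txnrd1* r = 0.62 (permutation adjusted p = 0.104), values of r close to those with all mice, whereas *Gsr* and *Srxn1* had r = 0.45 (permutation adjusted p = 0.238). The negative correlation of largest size, between *Gclm* and *Srxn1*, missed the threshold with all mice (r = −0.68, permutation p = 0.00875, adjusted p = 0.0656; rho = −0.45, permutation p = 0.0819, adjusted p = 0.287). It was −0.86 within A226Y mice and 0.28 within WT mice, and −0.47 without the 2 farthest mice. *Nfe2l2* itself passed with no other gene by Pearson's measure. Its r was 0.56 with *Gclm* (permutation adjusted p = 0.103), 0.56 with *Osgin1* (permutation adjusted p = 0.0835) and 0.10 with *Keap1* (permutation adjusted p = 0.792). By Spearman's measure it passed with *Gclm* (rho = 0.70, permutation p = 0.00311, adjusted p = 0.0282).

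**Figure D3:**
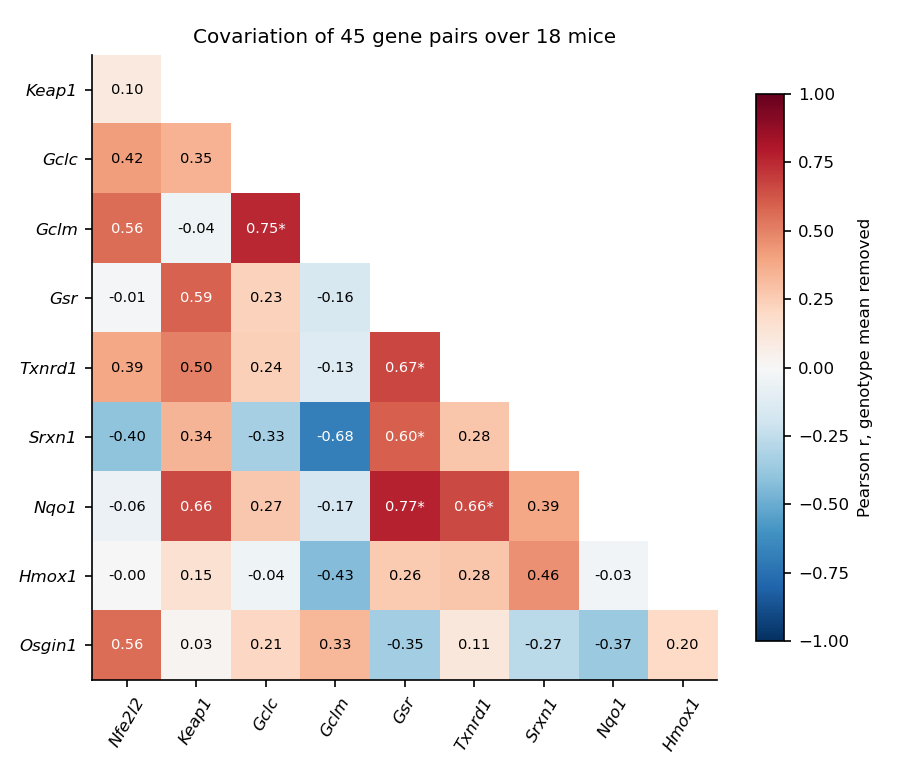
Pearson correlation (colour and number, scale −1 to 1) of log2 CPM between each of the 45 pairs of the 10 genes over 18 mice, after the mean of each genotype was removed; stars mark the 5 pairs with a Benjamini-Hochberg adjusted permutation p under 0.05. The stars fall on *Gclc* with *Gclm* and on pairs among *Gsr*, *Txnrd1*, *Srxn1* and *Nqo1*, while *Gclm* and *Srxn1* have the most negative value, −0.68.

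Genes that act on the NRF2 protein or on its binding were described as a list of 12, all of which were tested: the KEAP1 ligase and its modulators, other routes of degradation, and partners or competitors at the ARE. Of the 12, 1 rose in A226Y mice and none fell in edgeR (7.27% and 7.03% of all tested genes), and the median log2 fold change was 0.062, next to −0.004 over all tested genes. At an unadjusted p under 0.05, 4 were higher and 1 was lower (14.9% and 14.7% of all tested genes). DESeq2 called 2 higher and none lower (9.34% and 8.77% of all), and limma-voom 1 higher and none lower (7.14% and 6.87%). *Gsk3b*, which encodes a kinase that marks NRF2 for degradation apart from KEAP1, was the gene that rose. It ranged from 30.8 to 36.5 CPM in WT mice (median 34.9) and from 37.8 to 44.6 CPM in A226Y mice (median 41.9). Here the genotypes did not overlap, as all 10 A226Y mice were above all 8 WT mice (0.637% of all tested genes did not overlap, in either direction). *Gsk3b* had a log2 fold change of 0.26 ± 0.04 (SE, adjusted p = 0.002 in edgeR). It passed in 18 of 18 fits that left out a mouse and with surrogate variables (0.23, adjusted p = 0.0416), and with an offset for transcript length its log2 fold change was 0.14 (adjusted p = 0.0268).

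The other control genes named had the highest levels of the list or the lowest unadjusted p-values. *Sqstm1* encodes p62, which binds KEAP1 and directs it to autophagy, and was at 422 ± 49.8 CPM (SD, n = 10) in A226Y mice and 373 ± 41.8 CPM (SD, n = 8) in WT mice (log2 fold change 0.18, adjusted p = 0.154 in edgeR). *Nfe2l1*, which encodes the related factor NRF1, had a log2 fold change of −0.16 (adjusted p = 0.128). *Mafg*, which encodes a small MAF partner of NRF2, had one of 0.01 (adjusted p = 0.957). *Sqstm1* and *Mafg* overlap other genes of the tables (*Mrnip* and *Sirt7*), so reads at the overlap may belong to either. The genes with an unadjusted p under 0.05 were *Gsk3b*, *Sqstm1* and *Nfe2l1* as well as *Cul3* and *Bach1*, both named after their values were seen. *Cul3*, the ligase scaffold, had a log2 fold change of 0.14 (adjusted p = 0.0669 in edgeR and 0.0388 with DESeq2), one of 0.17 without A226Y mouse 29 (adjusted p = 0.0111) and one of 0.05 with a GC offset (adjusted p = 0.456). *Bach1*, a repressor that competes for the ARE, had a log2 fold change of 0.16 (adjusted p = 0.105 in edgeR).

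A wider list of 38 NRF2 targets held 35 tested genes, of which 1 rose and 6 fell in A226Y mice (7.27% and 7.03% of all tested genes). The median log2 fold change of the 35 was −0.069, and 22 were negative. *Slc7a11*, *Gsta1* and *Gpx2* did not pass the filter on low counts, with mean levels of at most 0.217 CPM in either genotype. Among genes of glutathione supply and conjugation 1 of 10 tested rose and 2 fell. *Gstm4*, a glutathione transferase, was at 51.5 ± 9.5 CPM (SD, n = 10) in A226Y mice and 38.5 ± 7.4 CPM (SD, n = 8) in WT mice (log2 fold change 0.42, adjusted p = 0.0313 in edgeR). *Gsta3*, another transferase, was at 991 ± 204 CPM in A226Y mice and 1378 ± 123 CPM in WT mice (−0.48, adjusted p = 0.0127), and 7 of the 10 A226Y mice were below every WT mouse. *Mgst1*, the microsomal transferase, was at 1923 ± 161 and 2284 ± 269 CPM (−0.25, adjusted p = 0.0372). Transferase genes have near-identical copies, between which reads can be split or shared, so the values of *Gstm4* and *Gsta3* are uncertain to that extent.

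Of the 3 genes of thioredoxin and peroxiredoxins, 1 fell (7.03% of all tested genes). *Prdx6*, which encodes a peroxiredoxin that uses glutathione, was at 507 ± 79.5 CPM (SD, n = 10) in A226Y mice and 635 ± 96.7 CPM (SD, n = 8) in WT mice (log2 fold change −0.33, adjusted p = 0.0487 in edgeR). Without A226Y mouse 29, which had the lowest level, it was −0.27 (adjusted p = 0.0321). Of the 6 genes listed under NADPH supply, 3 fell (against the same 7.03%). The log2 fold changes of all 6 were negative, −0.38 to −0.03. That of *Me1* (named after its value was seen) was −0.07, and it was −0.19 to 0.03 as each mouse was left out. *Idh1*, which encodes an isocitrate dehydrogenase that makes NADPH in the cytosol, was at 332 ± 65.3 CPM in A226Y mice and 431 ± 45.4 CPM in WT mice (−0.38, adjusted p = 0.0338). *Tkt* (−0.31, adjusted p = 0.0217) and *Taldo1* (−0.18, adjusted p = 0.0376) encode transketolase and transaldolase of the non-oxidative branch of the pentose phosphate pathway, which does not itself make NADPH. The 2 dehydrogenases of the oxidative branch, *G6pdx* and *Pgd* (named after their values were seen), had adjusted p-values of 0.925 and 0.185 in edgeR. Without A226Y mouse 29, *Pgd* passed the test (−0.32, adjusted p = 0.019) and *G6pdx* did not (−0.19, adjusted p = 0.213, against −0.03 with all mice). The log2 fold change of *Pgd* was −0.23 with all mice and −0.00 with surrogate variables (adjusted p = 0.993 in edgeR). The sign of *G6pdx* turned with surrogate variables (0.01) and with library size only (0.02). *G6pdx* overlaps *Ikbkg*, which had 39226 counts over all mice against 3486, so reads at the overlap may belong to either gene. None of the 5 heme and iron genes, the 8 genes of xenobiotic metabolism and the 3 export genes was called in edgeR, and 1 export gene, *Abcc3* (named after its value was seen), had an unadjusted p under 0.05 (−0.46, adjusted p = 0.0927).

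*Gsta3* was called under 29 of 29 alternatives and *Tkt* under 26, whereas *Prdx6* was called under 11. Over the 18 fits that each left out a mouse, *Gsta3* passed in 18, *Tkt* in 17, *Gstm4* in 14, *Taldo1* in 12, *Idh1* in 11, *Mgst1* in 8 and *Prdx6* in 6. With surrogate variables 1 of the 35 fell and none rose (1.02% and 0.839% of all tested genes). The 1 that fell was *Gsta3* (−0.42, adjusted p = 0.0346 in edgeR), whereas *Tkt* lost its call (−0.21, adjusted p = 0.194). The log2 fold change of *Gstm4* was then 0.39, that of *Mgst1* −0.11, that of *Taldo1* −0.09, that of *Prdx6* −0.16 and that of *Idh1* −0.23. Without both A226Y mouse 29 and WT mouse 33, 9 fell and 1 rose (9.13% and 8.67%). The 3 that fell besides the 6 were *Pgd* (−0.30, adjusted p = 0.0351), *Txn1* (−0.25, adjusted p = 0.0203) and *Abcc3* (−0.46, adjusted p = 0.0442), named after their values were seen. *Idh1* missed the threshold without WT mouse 33 (adjusted p = 0.0555). Of the 8 pericentral hepatocyte markers, which mark the zone where many xenobiotic genes are highest, 2 fell (*Cyp1a2* and *Rhbg*, named after their values were seen, against 7.03% of all tested genes), 3 had a positive log2 fold change, and the median was −0.057. The summed level of the 8 was between 8067 and 13670 CPM in WT mice and between 4519 and 10740 CPM in A226Y mice, lowest in mouse 29. *Rhbg* had the lowest mean level of the 8 (5.31 CPM). It overlaps *Gm38392*, which had 2715 counts over all mice against 2942, so reads at the overlap may belong to either gene. The part of the 8 markers in the values of the transferases was not tested.

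**Figure D4:**
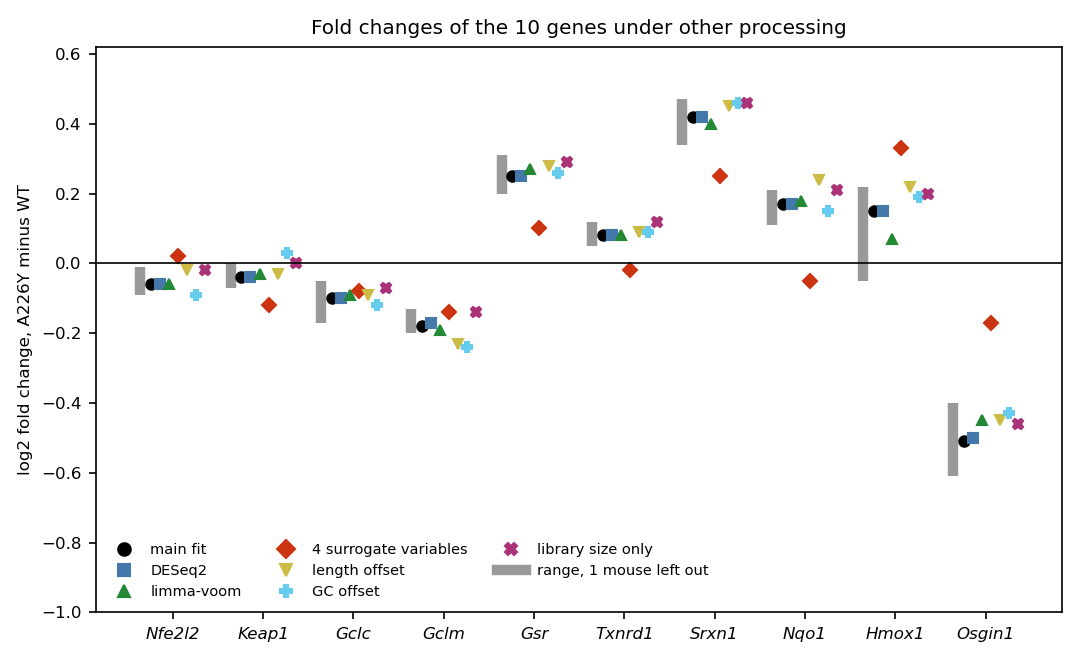
Log2 fold changes of A226Y minus WT (vertical axis) for each of the 10 genes with all mice (black circles) and under 6 other ways of processing (other symbols); grey bars span the fits that each left out 1 mouse. *Srxn1* stays above 0 throughout, at 0.25 with surrogate variables, *Osgin1* stays below 0, and the symbols of *Nfe2l2*, *Keap1*, *Txnrd1* and *Nqo1* fall on both sides of 0, as does the grey bar of *Hmox1*.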

How the data were processed

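The authors deposited 1 table per mouse with a whole-number count of reads per Ensembl gene (22524 genes, not normalized). The submitters' processing notes name bcl2fastq, fastp, MultiQC, STAR, featureCounts and GRCm38, whereas the methods of the paper name RSEM, so the step that made the counts is not settled by the sources used here. The library kit's strandedness is not given in the sources used here, and reads at the overlap of genes cannot be told apart. None of the 10 genes overlaps another gene of the tables. Symbols and positions came from GENCODE M21 (GRCm38), which holds 22291 of the identifiers and lacks 233.

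A gene was tested if, in one genotype or the other, 50% or more of the mice reached 10 counts (13353 genes). The test was that of edgeR 4.0.16 in R 4.3.3 (TMM scaling, quasi-likelihood fit, no covariates), which is two-sided, with Benjamini-Hochberg adjustment over all of them. The standard error was the log2 fold change divided by the square root of F. Single genes were also compared by exact permutation of log2 CPM (prior count 2), and pairs by 100000 permutations within genotype. Mice are separate animals. No 2 libraries of a genotype were duplicates (73 pairs, chi-square per degree of freedom at least 19.7). The biological coefficient of variation, a measure of the spread between mice apart from counting error, was 0.194 as a common value for all tested genes. Single genes can lie below or above it.

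The genes and lists were chosen with earlier results of these data known. Named beyond the 10 genes were the list genes with an adjusted p-value under 0.05, at most 12 a list, where fewer than 3 passed also the 3 with the highest mean CPM, and *Rps2*. Other list genes and markers were named where a count was small, where they were not tested or where their call or sign turned. Alternatives were other scalings (RLE, upper quartile, library size), other filters, DESeq2 1.42.0, limma-voom 3.58.1, 4 surrogate variables (sva 3.50.0), lowess offsets (span 0.3) on transcript length or GC content, and leaving out each mouse. Leaving out A226Y mouse 29 and WT mouse 33 together was added after seeing the data. Procedures were tested on simulated counts. Sample labels hold no batch.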

Additional observations from a re-analysis of the deposited data

Results flagged for a closer look

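Among the 36 groups examined (18 genes in 2 genotypes), 3 held a mouse whose gap to its nearest neighbour was large for the range of its group by Dixon's criterion, which flags about 1 in 20 groups by chance. *Hmox1* was 78.3 CPM in A226Y mouse 29, with the next mouse at 49.4 CPM (gap over range 0.533, critical value 0.466). *Prdx6* was 314 CPM in the same mouse, with the next at 483 CPM (0.549, critical value 0.466). *Gsk3b* was 30.8 CPM in WT mouse 14, with the next at 34.0 CPM (0.554, critical value 0.526). Without mouse 29, the log2 fold change of *Hmox1* was −0.05, as given above.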

How the results depend on the processing

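Leaving out each mouse in turn gave 1 to 2 of the 10 genes higher and 0 lower, 1 to 2 control genes higher, 0 to 3 of the wider targets higher and 1 to 7 lower, and 3 to 6 correlated pairs, with 3 of them without A226Y mouse 29. *Gsr* was called besides *Srxn1* without WT mouse 4 or WT mouse 6, and *Cul3* besides *Gsk3b* without A226Y mouse 29. In the wider list 1 gene fell without WT mouse 24, 2 fell without A226Y mouse 11, WT mouse 13, WT mouse 14 or WT mouse 21, and 3 without A226Y mouse 32 (over all genes, 4.67% to 5.49% were lower in these fits, against 7.03% with all mice). None of that list rose without A226Y mouse 7, A226Y mouse 11, WT mouse 14 or WT mouse 21, and 3 rose without WT mouse 6. *Hmox1* ranged from −0.05 to 0.22 and *Keap1* from −0.07 to 0.00, turning sign without WT mouse 24.

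Of the 10 genes, 2 were higher with DESeq2 or the length offset and 0 with surrogate variables. Control genes higher numbered 3 with library size only and 2 with DESeq2. Wider targets lower numbered 3 with library size only, no filter or the GC offset, 2 with the length offset and 1 with surrogate variables (over all genes 4.94%, 4.51%, 6.05%, 5.83% and 1.02%), with which 0 were higher. Signs turned with surrogate variables for *Nfe2l2* (0.02), *Txnrd1* (−0.02) and *Nqo1* (−0.05), and for *Keap1* with the GC offset (0.03) and library size only (0.00). With library size only 8 pairs passed, the median log2 fold change of all tested genes was 0.039, and 67.9% of all calls were higher, against 50.8% with TMM. Without both A226Y mouse 29 and WT mouse 33, 2 control genes were higher, 2 pairs passed and *Hmox1* was −0.10. Calls over all genes numbered 1910, and 248 with surrogate variables. The causes of these shifts were not tested. No paired analysis was possible because the genotypes share no replicate number.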
